A study of Mus musculus with 61 samples.

Results

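Cdh1, Cldn4, Cldn6, Cldn7, Tjp1, Atp1b1, Aqp3 and Aqp11 form a set of 8 genes of cell junctions and blastocyst cavity formation, chosen by symbol from the gene tables of a mouse preimplantation series. All 8 were listed among the 24551 genes measured across labelling windows and among the 22911 genes measured across Klf17 genotypes. All 8 also passed the filter on low counts, in company with 16234 and 16694 genes in all. Cldn6, Cldn7 and Aqp3 had at most 12 reads in any window library up to 12-18hpi and passed through later groups.

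Cadherins join neighbouring cells at adherens junctions, and claudins, linked to the actin cortex by zonula occludens proteins such as Tjp1, seal the space between cells at tight junctions. In the mouse embryo these junctions assemble as blastomeres compact and the outer cells become the trophectoderm epithelium. The sodium pump, of which Atp1b1 is a beta subunit, then moves sodium across that epithelium, and water follows in part through aquaporins to fill the blastocoel.

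The assay was SLAM-seq, which feeds cells 4-thiouridine (4SU), a uridine analogue that is built into RNA during labelling and later alkylated so that sequencing reads show it. The windows began with wild-type MII oocytes, the unfertilised group, labelled with 2 mM 4SU for 6 h and pooled at 10 a sample. Wild-type embryos from in vitro fertilisation followed at 0-6, 6-12, 12-18, 18-24, 24-30, 30-36, 48-54, 70-76 and 90-96 hours post insemination (hpi), labelled with 2 mM 4SU for 6 h and pooled at 10 embryos a sample. Each of these 10 groups had 3 libraries. The genotype set held 4SU-labelled embryos collected at what the study calls the M2C stage, labelled Klf17 KO (3 libraries), Klf17 maternal KO (mKO, 3), Klf17 paternal KO (pKO, 2) and wild type (ctrl, 3). These embryos were likewise given 2 mM 4SU for 6 h. Klf17 is a Kruppel-like transcription factor, and how its allele was made, which part was removed and the mice's strain and age are not given in the sources used here. Sperm and cumulus-oocyte complexes were in 4SU together for the 0-6hpi group.

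Libraries held between 7395193 and 13301570 gene counts in the windows and between 14080264 and 23018252 in the genotypes, and replicates correlated across genes at r = 0.976 to 0.993 and 0.913 to 0.980. The 8 oocyte markers summed to between 2.88 and 70.2 CPM (reads scaled to a common library total) at 90-96hpi and to between 8889 and 9005 CPM in MII oocytes, while the 12 trophectoderm markers summed to between 5974 and 9352 CPM at 90-96hpi and between 279.7 and 293 CPM in MII oocytes. Cumulus and granulosa cell markers, 14 of 15 listed, summed to between 4.03 and 7.20 CPM at 90-96hpi and between 140.3 and 155 CPM in MII oocytes. In MII oocytes 8 of them were at 0 (Ptx3, Tnfaip6, Fshr, Lhcgr, Amh, Amhr2, Vcan and Foxl2). At 90-96hpi 5 were at 0 (Ptx3, Ptgs2, Lhcgr, Amh and Vcan). Sperm markers summed to at most 8.51 CPM in any window library, and whether cumulus or sperm RNA added to early levels was not tested. No source used here says whether the deposited counts hold all reads or converted reads alone, and a level may therefore include RNA made before labelling.

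The 8 genes followed different courses over the windows. Cdh1 and Tjp1 messages were present in the oocyte, and Cdh1 fell over the first 3 windows and later rose again. Cldn6 and Aqp11 appeared at 18-24hpi. Cldn4, Cldn7 and Aqp3 were low until 30-36hpi and abundant from 48-54hpi. Atp1b1 was present throughout, dipped at 48-54hpi and was highest at 90-96hpi. Every window library is a pool of whole embryos, so fewer cells of a type and less RNA per cell cannot be told apart in any of these values.

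Calls were made at an adjusted p below 0.05 over all genes tested. A log2 ratio or log2 fold change is that of the later over the earlier group, or of the first-named genotype over the second. At 0-6hpi against MII 1 of the 8 genes was called, where 21.2% of all tested genes were called, and the count was again 1 of 8 at 6-12hpi against 0-6hpi (7.66% of all genes) and at 12-18hpi against 6-12hpi (13.2%). Each of those calls was a fall of Cdh1. At 18-24hpi against 12-18hpi 4 of 8 were called (33.0% of all genes), at 24-30hpi against 18-24hpi 4 of 8 (45.4%) and at 30-36hpi against 24-30hpi 4 of 8 (49.9%). The later steps called 7 of 8 at 48-54hpi against 30-36hpi (62.0% of all genes), 6 of 8 at 70-76hpi against 48-54hpi (43.4%) and 6 of 8 at 90-96hpi against 70-76hpi (39.6%). Across longer spans, 2 of 8 were called at 12-18hpi against MII (43.9% of all genes), 6 of 8 at 90-96hpi against 48-54hpi (56.9%) and 8 of 8 at 90-96hpi against MII (81.0%).

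The direction of these calls differed from step to step. At 48-54hpi against 30-36hpi 6 of the 8 genes rose and Atp1b1 fell, with a median log2 fold change of 1.55 over the 8 genes and -0.19 over all genes tested. At 70-76hpi against 48-54hpi 4 rose and 2 fell, with medians of 0.42 over the 8 genes and 0.00 over all genes, and at 90-96hpi against 70-76hpi 5 rose and 1 fell, with medians of 0.81 and 0.07. Against MII oocytes, 7 were higher and Tjp1 was lower at 90-96hpi, with medians of 3.99 over the 8 genes and 0.27 over all genes. These medians over the 8 genes did not change when genes with at most 3 reads in a group were set to their ratio of reads. That cannot test them, since only the highest gene was replaced, Cldn4 at 48-54hpi against 30-36hpi and Cldn6 at 90-96hpi against MII. Of all tested genes 62.0% were called at 48-54hpi against 30-36hpi (4653 rose, 5411 fell). The share was 43.4% at 70-76hpi against 48-54hpi (3511 rose, 3542 fell) and 39.6% at 90-96hpi against 70-76hpi (3256 rose, 3166 fell). Marker genes were called at the same steps. Of 12 trophectoderm markers 7 rose and 2 fell at 48-54hpi against 30-36hpi, 7 rose and 1 fell at 70-76hpi against 48-54hpi, and 9 rose and 0 fell at 90-96hpi against 70-76hpi. Of 9 primitive endoderm markers 4, 4 and 6 rose and 1, 1 and 0 fell at these steps, and of 9 inner cell mass and epiblast markers 6, 4 and 3 rose and 2, 4 and 2 fell. Their part in the changes of the 8 genes was not tested.

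**Figure D1:**
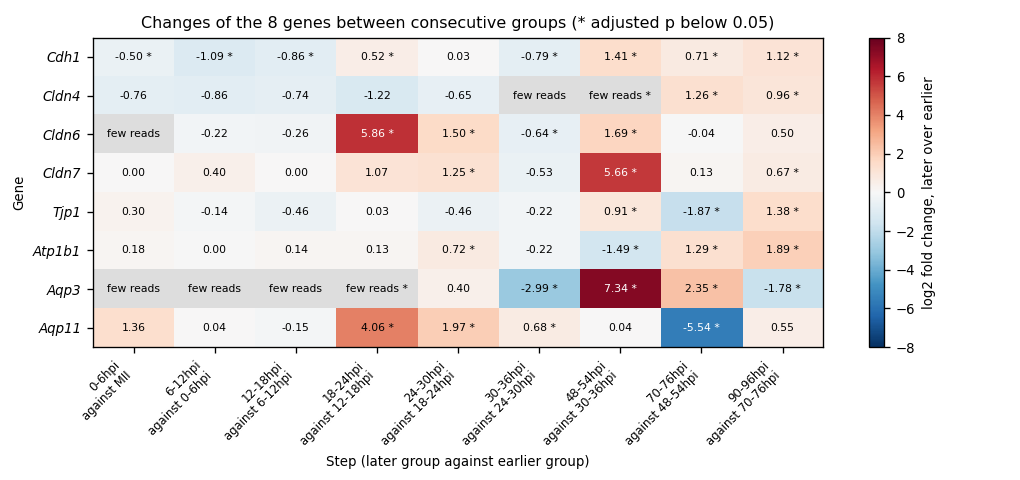
Log2 fold change of each of the 8 genes (rows) at each step between consecutive groups (columns, later over earlier); red is higher and blue lower in the later group, an asterisk marks an adjusted p below 0.05, and grey cells have at most 3 reads in one group. Asterisks stand at 1 of 8 genes in each of the first 3 steps (all genes: 21.2, 7.66 and 13.2% called), at 4 of 8 in each of the middle 3 (33.0, 45.4 and 49.9%) and at 7, 6 and 6 of 8 in the last 3 (62.0, 43.4 and 39.6%).

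Cdh1, which encodes E-cadherin, the main adhesion molecule of the early embryo, lies at chr8:106603350-106670247 (GRCm38.p6, as are all positions here). Its level was 268, 268 and 263 CPM in the MII libraries, 199, 184 and 181 CPM at 0-6hpi, 88.9, 92.2 and 84.0 CPM at 6-12hpi and 59.0, 39.9 and 46.9 CPM at 12-18hpi. No libraries of neighbouring groups overlapped in that run, and the level fell at each step. The 12-18hpi embryos held 48.6 ± 9.63 CPM (SD, n = 3) against 266 ± 2.45 CPM in MII oocytes (log2 ratio -2.45, SE 0.15, edgeR adjusted p = 8.94e-16). With total counts in place of TMM factors the first fall, at 0-6hpi against MII, had a log2 fold change of -0.34 and an edgeR adjusted p of 0.105, against -0.50 and 0.00737 with TMM.

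The level of Cdh1 then moved up and down before its final climb. It was 69.9 ± 8.40 CPM at 18-24hpi, 71.1 ± 13.3 CPM at 24-30hpi and 41.2 ± 4.21 CPM at 30-36hpi, where it was lowest. It rose at 18-24hpi against 12-18hpi (log2 0.52, edgeR adjusted p = 0.00464) and fell at 30-36hpi against 24-30hpi (log2 -0.79, edgeR adjusted p = 2.48e-05). The last 3 windows held 101, 113 and 113 CPM at 48-54hpi, 164, 182 and 193 CPM at 70-76hpi and 375, 454 and 338 CPM at 90-96hpi. Each of these groups lay wholly above the one before it. The 90-96hpi level was 1.46 times that of MII oocytes (log2 ratio 0.55, SE 0.14, edgeR adjusted p = 5.70e-04).

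Tjp1, the scaffold that ties claudins to actin, lies at chr7:65296165-65527850 and was the only 1 of the 8 genes whose mean was highest before 12 hpi. It stood at 54.5, 54.9 and 61.3 CPM in the MII libraries, 75.7, 65.9 and 68.0 CPM at 0-6hpi and 66.1, 65.8 and 58.7 CPM at 6-12hpi, and none of the steps up to 30-36hpi was called. Means then stood at 46.1 ± 4.35, 47.2 ± 2.82, 34.2 ± 2.07 and 29.3 ± 3.85 CPM at 12-18, 18-24, 24-30 and 30-36hpi. Across the 10 groups ordered by mean, 8 of 9 neighbouring pairs overlapped in their libraries.

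Later Tjp1 levels were uneven between replicates. The 48-54hpi libraries held 73.0, 46.0 and 46.4 CPM, the 70-76hpi libraries 15.6, 14.1 and 15.6 CPM and the 90-96hpi libraries 24.7, 49.6 and 43.7 CPM. Replicate 1 was the high library at 48-54hpi and the low library at 90-96hpi. The fall at 70-76hpi against 48-54hpi (log2 ratio -1.87, SE 0.21, edgeR adjusted p = 2.36e-09) and the rise at 90-96hpi against 70-76hpi (log2 1.38, edgeR adjusted p = 1.18e-06) separated all libraries. The rise at 48-54hpi against 30-36hpi (log2 0.91, edgeR adjusted p = 1.46e-04) became log2 0.38 with an edgeR adjusted p of 0.127 without 48-54hpi replicate 1, and log2 0.44 with an edgeR adjusted p of 0.0637 with total counts. At 90-96hpi against 48-54hpi the log2 fold change was -0.49 (edgeR adjusted p = 0.0322), and it was -0.22 (edgeR adjusted p = 0.405) without that library and -0.19 (edgeR adjusted p = 0.411) without 90-96hpi replicate 1. Total counts (log2 -0.14, edgeR adjusted p = 0.567) and a fit of only these groups (edgeR adjusted p = 0.113) lost that call too. At 90-96hpi against MII the value of -0.53 (edgeR adjusted p = 0.0133) was -0.26 (edgeR adjusted p = 0.21) without 90-96hpi replicate 1 and 0.00754 with total counts, where its sign turned (edgeR adjusted p = 0.983). It also missed the threshold without any 1 MII library (edgeR adjusted p = 0.0563 to 0.101), with no low count filter (edgeR adjusted p = 0.0710) and in a fit of only these groups (edgeR adjusted p = 0.0627).

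Promoter sequences are shown for the 5 genes that were low in the oocyte and early zygote and then appeared. They are grouped as Cldn6 and Aqp11, which rose at 18-24hpi, and Cldn4, Cldn7 and Aqp3, which became abundant at 48-54hpi. These groups are not exclusive. A rise was also called for Aqp3 at 18-24hpi, for Cldn7 at 24-30hpi and for Cldn6 at 48-54hpi. Each sequence is the 250 bases before an annotated RefSeq start (GRCm38.p6), given 5′ to 3′ on the gene's strand, and RefSeq promoters were found for 7 of the 8 genes (all but Cdh1). Capitals mark matches on either strand to the GC box GGGCGG, the CACCC box (named for its letters), the TEAD motif GGAATG or the TATA box TATAAA. The AP-2 motif GCCNNNGGC was searched as well, and a GC box and a CACCC box can overlap. The first pair, of Cldn6 (chr17:23679115-23679364, plus strand) and Aqp11 (chr7:97738248-97738497, minus strand), belongs to the genes that rose at 18-24hpi, and the last 17 bases of the Cldn6 window lie inside the gene's outer bounds.
Cldn6: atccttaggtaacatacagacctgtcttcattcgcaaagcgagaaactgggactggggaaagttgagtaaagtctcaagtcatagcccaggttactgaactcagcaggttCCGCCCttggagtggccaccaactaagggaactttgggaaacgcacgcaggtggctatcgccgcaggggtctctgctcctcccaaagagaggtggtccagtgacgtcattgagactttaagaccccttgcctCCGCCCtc
Aqp11: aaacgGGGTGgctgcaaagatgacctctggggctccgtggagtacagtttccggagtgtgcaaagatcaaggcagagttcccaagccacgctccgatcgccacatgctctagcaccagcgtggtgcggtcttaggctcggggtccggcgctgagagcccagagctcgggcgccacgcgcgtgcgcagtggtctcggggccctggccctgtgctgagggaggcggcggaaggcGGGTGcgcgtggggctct

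Promoters of Cldn4 (chr5:134946935-134947184, minus strand), Cldn7 (chr11:69964529-69964778, plus strand, the upstream 1 of 2 listed starts) and Aqp3 (chr4:41098184-41098433, minus strand), the genes that became abundant at 48-54hpi, follow with the same marking.
Cldn4: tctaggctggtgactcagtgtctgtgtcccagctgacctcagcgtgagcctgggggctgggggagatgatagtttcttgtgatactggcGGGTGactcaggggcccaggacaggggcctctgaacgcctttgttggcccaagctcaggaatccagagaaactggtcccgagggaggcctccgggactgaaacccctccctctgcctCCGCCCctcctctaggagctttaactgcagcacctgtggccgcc
Cldn7: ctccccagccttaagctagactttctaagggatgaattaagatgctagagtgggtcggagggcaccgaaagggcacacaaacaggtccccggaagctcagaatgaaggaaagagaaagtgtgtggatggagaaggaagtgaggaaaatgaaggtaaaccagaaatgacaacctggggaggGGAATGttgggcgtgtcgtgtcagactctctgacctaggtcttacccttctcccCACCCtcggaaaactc
Aqp3: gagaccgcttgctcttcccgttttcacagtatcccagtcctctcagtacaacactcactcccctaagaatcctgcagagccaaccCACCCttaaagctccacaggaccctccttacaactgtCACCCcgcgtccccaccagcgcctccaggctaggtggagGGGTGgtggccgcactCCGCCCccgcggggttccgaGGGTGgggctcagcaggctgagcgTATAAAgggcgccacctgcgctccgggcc

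The 5 windows share no single motif. Cldn6 holds 2 GC boxes and Aqp11 none, and Aqp11 holds 2 CACCC boxes and Cldn6 none. Of the later set, Cldn4 has 1 GC box at position -44 from the start and 1 CACCC box. Cldn7 has 1 CACCC box and 1 TEAD motif, which starts at position -70. Aqp3 has 1 GC box, 4 CACCC boxes and 1 TATA box at position -29. Among 32851 promoter windows of the same length, 32.7% hold a GC box, 52.0% a CACCC box, 12.6% the TEAD motif, 12.4% the TATA box and 13.7% the AP-2 motif, which none of the 7 promoters holds. Base composition was 53.6% G and C in the Cldn6 window, 67.2% in Aqp11, 62.0% in Cldn4, 51.2% in Cldn7 and 64.0% in Aqp3, beside a median of 52.4% over all windows. These matches describe letters only.

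Cldn6, a claudin of early embryonic epithelia (chr17:23679348-23682446), was the first of the 3 claudins with a called rise between consecutive groups. It had 92, 124 and 86 reads in the 18-24hpi libraries and 0, 3 and 2 reads in the 12-18hpi libraries. Levels were 10.9, 14.3 and 10.8 CPM at 18-24hpi against 0, 0.358 and 0.218 CPM at 12-18hpi (log2 ratio 5.86, SE 0.51, edgeR adjusted p = 1.63e-11). All 3 later libraries lay above all 3 earlier ones, and 12-18hpi replicate 2 held 3 of the 5 earlier reads; without it the log2 value was 6.60. A further rise at 24-30hpi brought it to 33.9 ± 4.69 CPM (log2 1.5, edgeR adjusted p = 4.00e-05).

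The fall of Cldn6 at 30-36hpi, to 21.7 ± 3.91 CPM, was near the threshold (log2 -0.64, edgeR adjusted p = 0.0467) and lost the call with DESeq2 size factors (edgeR adjusted p = 0.0703), with total counts (edgeR adjusted p = 0.0541), with DESeq2 (adjusted p = 0.0597) and without any 1 of 5 of the 6 libraries. At 48-54hpi it had 38.1, 89.0 and 84.1 CPM against 20.8, 26.0 and 18.3 CPM at 30-36hpi (log2 1.69, edgeR adjusted p = 1.76e-06), with replicate 1 below the other libraries of its window. Its mean was 70.4 ± 28.1 CPM at 48-54hpi, 68.6 ± 9.78 CPM at 70-76hpi and 97.4 ± 4.92 CPM at 90-96hpi, and neither of the last steps was called, although a fit of only these groups called the step to 90-96hpi (edgeR adjusted p = 0.0158). With 2604 reads at 90-96hpi and 1 read in the 3 MII libraries together, the ratio of scaled reads was 2684 with a 95% counting interval of 481 to 106100.0.

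Cldn7, a claudin of many adult epithelia (chr11:69964779-69967886), stayed under 6 CPM in every library up to 30-36hpi. A small rise was called at 24-30hpi, with 5.67, 3.71 and 2.37 CPM against 0.709, 1.84 and 2.38 CPM at 18-24hpi (log2 1.25, edgeR adjusted p = 0.0137); 1 library of the earlier window reached the lowest of the later one, and without 24-30hpi replicate 1 the edgeR adjusted p was 0.0559. At 48-54hpi the libraries held 149.7, 113 and 147 CPM against 4.02, 2.32 and 1.78 CPM at 30-36hpi (log2 ratio 5.66, SE 0.34, edgeR adjusted p = 6.40e-16). That 50.5-fold rise separated every library. Levels were 251, 206 and 259 CPM at 90-96hpi and 123, 155 and 171 CPM at 70-76hpi, with no overlap. The last step was called (log2 0.67, edgeR adjusted p = 0.0355), but the edgeR adjusted p lay between 0.0724 and 0.183 without 70-76hpi replicate 1, 70-76hpi replicate 2, 90-96hpi replicate 1 or 90-96hpi replicate 3. At 90-96hpi against 48-54hpi it rose as well (log2 0.80, edgeR adjusted p = 0.00788; edgeR adjusted p = 0.0590 without 48-54hpi replicate 2).

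Cldn4, known as a receptor for a clostridial toxin as well as a seal protein (chr5:134945123-134946934), had 2.98 ± 1.34 CPM per kb in the oocyte, where Cldn7 had 0.432 ± 0.374 and Cldn6 0.0244 ± 0.0422 CPM per kb. The 12-18hpi libraries held 0.722, 0.596 and 1.74 CPM and MII libraries 7.85, 5.39 and 2.98 CPM (74, 49 and 27 reads), a fall with no overlap (log2 -2.37, edgeR adjusted p = 1.02e-04) whose log2 value was -3.13 without 12-18hpi replicate 3. At 30-36hpi only 3 reads remained over the 3 libraries. The 48-54hpi libraries then held 32.8, 38.7 and 39.9 CPM against 0.201, 0 and 0.104 CPM at 30-36hpi, a ratio of scaled reads of 399 with a 95% counting interval of 136 to 1939 (edgeR adjusted p = 2.85e-14). Increases followed at 70-76hpi, with 72.0, 95.7 and 98.6 CPM (log2 1.26, edgeR adjusted p = 0.00131), and at 90-96hpi, with 155, 183 and 178 CPM (log2 0.96, edgeR adjusted p = 0.0125). Both steps separated all libraries, and the second missed the threshold without 70-76hpi replicate 1 (edgeR adjusted p = 0.0835).

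Per kilobase of gene length, as the deposited tables give it, the leading claudin of the 3 changed. Cldn4 made up 89.1 ± 10.0% of their summed CPM per kb in MII oocytes, Cldn6 84.5 ± 8.10% at 18-24hpi, 87.8 ± 4.62% at 24-30hpi and 87.4 ± 5.07% at 30-36hpi, and Cldn7 60.7 ± 10.6% at 48-54hpi. At 90-96hpi Cldn7 made up 52.7 ± 3.41%, Cldn4 28.1 ± 3.40% and Cldn6 19.1 ± 0.429% of a sum of 338 ± 21.5 CPM per kb. The MII share rests on a sum of only 3.43 ± 1.67 CPM per kb.

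**Figure D2:**
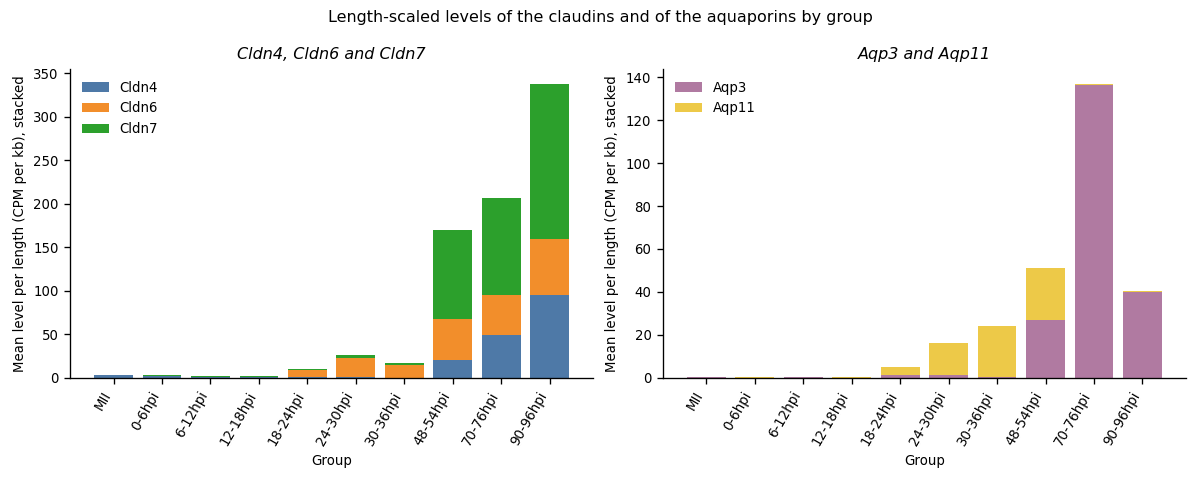
Mean level per length (CPM per kb, n = 3 libraries) of Cldn4, Cldn6 and Cldn7 (left) and of Aqp3 and Aqp11 (right), stacked for each of 10 groups. Cldn6 fills most of the claudin bars at 18-24 to 30-36hpi and Cldn7 is the largest segment from 48-54hpi; Aqp11 fills most of the aquaporin bars at 24-30 and 30-36hpi and Aqp3 nearly all of those at 70-76 and 90-96hpi.

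Aqp11, an intracellular aquaporin also studied in kidney (chr7:97726379-97738247), appeared together with Cldn6 but did not persist. Levels were 0.842, 0.715 and 2.29 CPM at 12-18hpi, 27.3, 23.5 and 15.0 CPM at 18-24hpi, 92.2, 86.5 and 79.8 CPM at 24-30hpi and 127, 141 and 146 CPM at 30-36hpi. Each group lay above the one before it, with rises at 18-24hpi (log2 ratio 4.06, SE 0.36, edgeR adjusted p = 3.66e-11) and at 24-30hpi (log2 1.97, edgeR adjusted p = 2.12e-07). Without 12-18hpi replicate 3 the first of these was log2 4.82. The step to 30-36hpi (log2 0.68, edgeR adjusted p = 0.0257) lost its call, at edgeR adjusted p values of 0.0574 to 0.0800, when replicate 2 or 3 of either window was left out.

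Aqp11 was low again at 70-76hpi. Its libraries held 4.16, 2.42 and 2.54 CPM at 70-76hpi and 164, 131 and 130.0 CPM at 48-54hpi. The 70-76hpi mean was 3.04 ± 0.973 CPM against 142 ± 19.1 CPM at 48-54hpi (log2 ratio -5.54, SE 0.33, edgeR adjusted p = 9.40e-16), the deepest fall of any of the 8 genes at a step between consecutive groups with more than 3 reads in each. It was 4.46 ± 0.853 CPM at 90-96hpi, above the 0.543 ± 0.185 CPM of MII oocytes (log2 3.00, edgeR adjusted p = 4.69e-07).

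Aqp3, an aquaglyceroporin that passes glycerol as well as water (chr4:41092724-41098183), was highest where Aqp11 was low again. It had 4, 18 and 22 reads in the 18-24hpi libraries and 1 read in all at 12-18hpi, a ratio of scaled reads of 45.3 with a 95% counting interval of 7.71 to 1829 (edgeR adjusted p = 0.00119). After 2.29 ± 0.888 CPM at 24-30hpi it was 0.503, 0 and 0.418 CPM at 30-36hpi, a fall (log2 -2.99, edgeR adjusted p = 0.00107) whose log2 value lay at -3.60 without 30-36hpi replicate 1 and -2.30 without 30-36hpi replicate 2. Its libraries then held 42.3, 46.0 and 53.8 CPM at 48-54hpi, 207, 272 and 245 CPM at 70-76hpi and 79.1, 52.0 and 79.3 CPM at 90-96hpi. The 70-76hpi libraries stood above all others.

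Tests on Aqp3 called each of these moves. The rise at 48-54hpi against 30-36hpi had a log2 value of 7.34 (edgeR adjusted p = 9.14e-12; 9 reads in the earlier window; 7.95 without 30-36hpi replicate 1 and 6.65 without 30-36hpi replicate 2). At 70-76hpi against 48-54hpi it rose (log2 ratio 2.35, SE 0.36, edgeR adjusted p = 4.03e-06), and at 90-96hpi against 70-76hpi it fell (log2 ratio -1.78, SE 0.35, edgeR adjusted p = 1.50e-04). The 90-96hpi and 48-54hpi libraries overlapped and were not called apart (log2 0.57, edgeR adjusted p = 0.165), although total counts (log2 0.89, edgeR adjusted p = 0.0247), a fit of only these groups (edgeR adjusted p = 0.0197) and no low count filter (edgeR adjusted p = 0.0437) called it. All 10 Aqp3 reads in MII oocytes came from replicate 2. Per kilobase, Aqp11 made up 99.3 ± 0.663% of the sum of both aquaporins at 30-36hpi, 47.7 ± 5.94% at 48-54hpi and 0.398 ± 0.184% at 70-76hpi.

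Atp1b1, the sodium pump subunit that carries the catalytic chain to the membrane, lies at chr1:164437099-164458355 and was never below 16 CPM in any window library. Its libraries held 26.5, 29.8 and 27.8 CPM in MII oocytes and its mean stayed between 28.1 and 38.0 CPM up to 18-24hpi, with no step called. It rose at 24-30hpi to 59.7, 65.4 and 62.9 CPM against 31.0, 39.0 and 44.0 CPM at 18-24hpi (log2 ratio 0.72, SE 0.17, edgeR adjusted p = 8.17e-04). At 48-54hpi it fell to 16.4, 18.4 and 22.5 CPM, against 62.5, 50.2 and 48.2 CPM at 30-36hpi (log2 ratio -1.49, SE 0.18, edgeR adjusted p = 5.43e-09). It was the one gene of the 8 to fall at that step, and no libraries overlapped.

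Both later steps raised Atp1b1. The 70-76hpi libraries held 44.4, 47.6 and 48.1 CPM (log2 1.29, edgeR adjusted p = 2.47e-07) and the 90-96hpi libraries 155, 185 and 179 CPM (log2 1.89, edgeR adjusted p = 8.42e-11). Between 48-54hpi and 90-96hpi the level rose 9.05-fold (log2 3.18, edgeR adjusted p = 9.76e-17). Atp1b1 overlaps the gene Nme7 over 202 bases of the RefSeq annotation, and since the strand that was counted is not stated, reads there may be split or shared. Nme7 was at 26.2 ± 3.15 CPM at 90-96hpi and 21.3 ± 5.62 CPM at 48-54hpi (log2 0.30, edgeR adjusted p = 0.172). None of the other 7 genes overlaps another RefSeq gene.

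**Figure D3:**
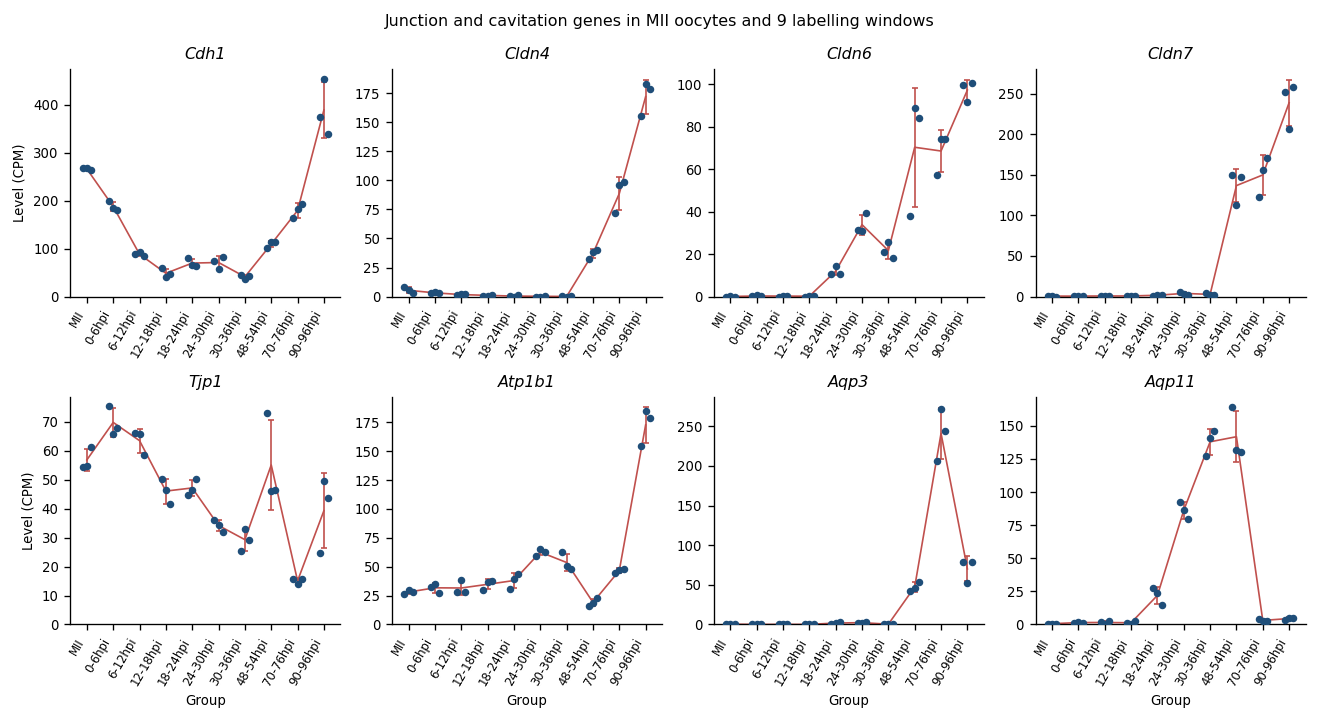
Level (CPM, linear axis from 0, its own scale in each panel) of the 8 genes in MII oocytes and the 9 windows; points are libraries (n = 3), the red line joins the means and bars show the SD. Aqp3 reaches 207 to 272 CPM at 70-76hpi, Aqp11 130.0 to 164 CPM at 48-54hpi, and Cdh1, Cldn4, Cldn6, Cldn7 and Atp1b1 have their highest mean at 90-96hpi.

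Per length, the order of the 8 genes changed with stage. In MII oocytes Cdh1 led at 60.1 ± 0.552 CPM per kb, followed by Atp1b1 (10.9 ± 0.643), Tjp1 (8.07 ± 0.539) and Cldn4 (2.98 ± 1.34), with no overlap of libraries down to Cldn7. At 48-54hpi Cldn7 led at 102 ± 15.4 CPM per kb, while the libraries of Cldn6, Aqp3, Cdh1 and Aqp11 overlapped in turn between 46.7 ± 18.6 and 24.4 ± 3.30 CPM per kb. At 90-96hpi the order was Cldn7 (179 ± 21.3 CPM per kb), Cldn4 (94.8 ± 8.04), Cdh1 (87.9 ± 13.4), Atp1b1 (67.0 ± 6.13), Cldn6 (64.6 ± 3.26), Aqp3 (39.7 ± 8.91), Tjp1 (5.58 ± 1.85) and Aqp11 (0.769 ± 0.147). Cldn4 overlapped Cdh1 and Atp1b1 overlapped Cldn6 in that order, and the other neighbours did not overlap.

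Other genes of the same structures were read from lists that leave out the 8 genes. Of 13 adherens junction genes, 8 rose and 3 fell at 70-76hpi against 48-54hpi (43.4% of all genes called). At 90-96hpi against 70-76hpi 9 rose and 0 fell (39.6%). Median log2 fold changes were 1.40 and 0.94, beside 0.00 and 0.07 over all genes. Epcam, an epithelial adhesion molecule, had 399.7 ± 35.4 CPM at 70-76hpi against 98.0 ± 8.67 CPM at 48-54hpi (log2 2.03, edgeR adjusted p = 1.48e-12) and 1229 ± 176 CPM at 90-96hpi against 399.7 ± 35.4 CPM at 70-76hpi (log2 1.62, edgeR adjusted p = 2.93e-10). Ctnna1, the catenin that links cadherin to actin, had 269 ± 26.8 CPM at 70-76hpi against 167 ± 13.3 CPM at 48-54hpi (log2 0.68, edgeR adjusted p = 2.45e-05). Afdn, which joins nectins to actin, had 69.8 ± 4.33 CPM at 90-96hpi against 36.5 ± 10.2 CPM at 70-76hpi (log2 0.94, edgeR adjusted p = 7.05e-06). Like Cdh1, these 3 genes rose at the steps given.

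Of 18 tight junction genes other than claudins, 6 rose and 5 fell at 70-76hpi against 48-54hpi (43.4% of all genes called). At 90-96hpi against 70-76hpi 7 rose and 1 fell (39.6%). Medians were 0.38 and 0.75, beside 0.00 and 0.07 over all genes. Lsr, a protein of tricellular contacts, had 78.2 ± 4.44 CPM at 70-76hpi against 9.41 ± 5.13 CPM at 48-54hpi (log2 3.05, edgeR adjusted p = 1.71e-10). Crb3, an apical polarity protein, fell instead and had 74.8 ± 7.97 CPM at 70-76hpi against 228 ± 25.0 CPM at 48-54hpi (log2 -1.61, edgeR adjusted p = 2.56e-10). Cgnl1, a junctional partner of the actin cortex, rose later and had 41.5 ± 5.33 CPM at 90-96hpi against 7.13 ± 4.20 CPM at 70-76hpi (log2 2.55, edgeR adjusted p = 1.64e-08). Of the other claudins, 11 of the 23 listed were tested. Among these 0 rose and 1 fell at 70-76hpi against 48-54hpi (43.4% of all genes called). At 90-96hpi against 70-76hpi 2 rose and 2 fell (39.6%). Their medians were -0.28 and 0.53, beside 0.00 and 0.07 over all genes. Cldn3 had 34.6 ± 7.97 CPM at 90-96hpi against 1.31 ± 0.399 CPM at 70-76hpi (log2 4.70, edgeR adjusted p = 3.32e-07).

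Of 16 tested genes of apical polarity and the actomyosin cortex, 9 rose and 2 fell at 70-76hpi against 48-54hpi (43.4% of all genes called). At 90-96hpi against 70-76hpi 12 rose and 1 fell (39.6%). Medians were 0.61 and 0.69, beside 0.00 and 0.07 over all genes. Pard3, a polarity scaffold, had 61.9 ± 7.36 CPM at 70-76hpi against 12.6 ± 2.65 CPM at 48-54hpi (log2 2.29, edgeR adjusted p = 5.14e-15). Ezr, which links the apical membrane to actin, had 62.1 ± 4.53 CPM at 70-76hpi against 3.61 ± 1.11 CPM at 48-54hpi (log2 4.09, edgeR adjusted p = 2.16e-12). Myh10 and Myh9, heavy chains of non-muscle myosin, rose at the last step. Myh10 had 454 ± 54.0 CPM at 90-96hpi against 95.3 ± 15.7 CPM at 70-76hpi (log2 2.25, edgeR adjusted p = 3.15e-13), and Myh9 had 148 ± 26.7 CPM at 90-96hpi against 27.7 ± 9.16 CPM at 70-76hpi (log2 2.42, edgeR adjusted p = 2.10e-10).

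Among 7 tested genes of the sodium pump other than Atp1b1, 2 rose and 4 fell at 70-76hpi against 48-54hpi (43.4% of all genes called). At 90-96hpi against 70-76hpi 3 rose and 2 fell (39.6%). Medians were -1.33 and -0.23, beside 0.00 and 0.07 over all genes. Atp1b3, another beta subunit, fell while Atp1b1 rose. It had 129.9 ± 14.3 CPM at 70-76hpi against 444 ± 49.1 CPM at 48-54hpi (log2 -1.77, edgeR adjusted p = 5.66e-15) and 86.7 ± 12.4 CPM at 90-96hpi against 129.9 ± 14.3 CPM at 70-76hpi (log2 -0.58, edgeR adjusted p = 6.73e-05). Fxyd4, a regulatory subunit, had 61.0 ± 9.34 CPM at 90-96hpi against 11.4 ± 0.886 CPM at 70-76hpi (log2 2.42, edgeR adjusted p = 1.32e-04).

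Of 4 tested aquaporins other than Aqp3 and Aqp11, 1 rose and 1 fell at 70-76hpi against 48-54hpi (43.4% of all genes called). At 90-96hpi against 70-76hpi 2 rose and 1 fell (39.6%). Medians were -1.42 and 2.36, beside 0.00 and 0.07 over all genes. All 10 listed aquaporins summed to a mean of 396 CPM at 48-54hpi and 68.1 CPM at 70-76hpi, nearly all of it Aqp9. Both aquaporin medians therefore rest largely on genes near the floor in these 2 windows. Aqp9, another aquaglyceroporin, fell at both steps, with 66.9 ± 14.8 CPM at 70-76hpi against 395 ± 12.3 CPM at 48-54hpi (log2 -2.56, edgeR adjusted p = 9.80e-16) and 51.2 ± 3.54 CPM at 90-96hpi against 66.9 ± 14.8 CPM at 70-76hpi (log2 -0.39, edgeR adjusted p = 0.0365). Of 8 tested ion transport genes, 2 rose and 2 fell at the first of these steps (43.4% of all genes called). At the second step 3 rose and 2 fell (39.6%), and the medians were -0.07 and 0.91, beside 0.00 and 0.07 over all genes. Slc12a2, a sodium, potassium and chloride cotransporter, fell at both, with 61.0 ± 15.6 CPM at 70-76hpi against 429 ± 23.8 CPM at 48-54hpi (log2 -2.81, edgeR adjusted p = 2.24e-14) and 29.5 ± 8.03 CPM at 90-96hpi against 61.0 ± 15.6 CPM at 70-76hpi (log2 -1.05, edgeR adjusted p = 2.59e-05). Slc9a3r1, a scaffold of apical transporters, rose at both, with 24.1 ± 3.52 CPM at 70-76hpi against 4.85 ± 1.77 CPM at 48-54hpi (log2 2.30, edgeR adjusted p = 3.70e-09) and 268 ± 17.3 CPM at 90-96hpi against 24.1 ± 3.52 CPM at 70-76hpi (log2 3.47, edgeR adjusted p = 1.19e-13).

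Profiles over the windows were compared by the Pearson correlation of mean log2(CPM + 1) over the 10 groups, as a description across points that share scaling and libraries. Among the 8 genes the closest pair was Cldn7 and Aqp3 (r = 0.969), followed by Cldn4 and Cldn7 (r = 0.891) and Cldn4 and Aqp3 (r = 0.886), and the most opposed was Cldn6 and Tjp1 (r = -0.629). Of 8993 eligible genes, the 3 most like Cdh1 were Blvra (r = 0.964), Ptprf (r = 0.944) and Slc44a1 (r = 0.938). Those most like Cldn4 were Grtp1 (r = 0.991), Lsm5 (r = 0.987) and Acadl (r = 0.986), for Cldn6 Eif2s3y (r = 0.995), Tbx3 (r = 0.995) and Fam136a (r = 0.993), and for Cldn7 Ckmt1 (r = 0.995), Ddah1 (r = 0.993) and Reep1 (r = 0.993). Tjp1 was closest to Smarcc2 (r = 0.924), Atxn2 (r = 0.910) and Soat1 (r = 0.904), and Atp1b1 to Gas2l1 (r = 0.954), Kmt2a (r = 0.949) and Slc9a3r1 (r = 0.928). For Aqp3 the closest were Shkbp1 (r = 0.985), Zmat3 (r = 0.984) and Pqlc3 (r = 0.983), and for Aqp11 Dnajb14 (r = 0.983), Slc19a3 (r = 0.978) and Prkcd (r = 0.971).

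The genotype libraries set the same 8 genes beside the Klf17 genotype. Klf17 itself overlapped between libraries labelled KO and ctrl. It had 672, 603 and 728 CPM in the libraries labelled KO, 359, 845 and 794 CPM in mKO, 811 and 1014 CPM in pKO and 596, 805 and 746 CPM in ctrl libraries (KO against ctrl: log2 -0.10, SE 0.30, edgeR adjusted p = 0.869). Since the removed part of the gene is not stated, counts over the whole gene do not check the label. The libraries labelled KO also had lower totals (14080264 to 15631152 reads) than ctrl libraries (17858094 to 19876670 reads) and a higher mitochondrial share (5.93 to 11.4% in the libraries labelled KO, 3.23 to 4.18% in ctrl libraries). Their 8 oocyte markers summed to between 3541 and 4082 CPM, against between 1937 and 2735 CPM in ctrl libraries, while the 12 trophectoderm markers summed to between 118 and 219 CPM in the libraries labelled KO and between 143 and 157 CPM in ctrl libraries. In KO against ctrl 3 of 10 tested trophectoderm markers were called (1 rose, 2 fell), and Cdx2 was at 0 in ctrl libraries. Of 8 oocyte markers 2 were called (1 rose, 1 fell), where 8.13% of all genes were called (304 rose, 1054 fell).

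In the libraries labelled KO against ctrl, 1 of the 8 genes was called, Aqp11, where 8.13% of all tested genes were called. Aqp11 had 73.5, 61.8 and 58.4 CPM in the libraries labelled KO, 105, 153 and 159 CPM in mKO, 182 and 115 CPM in pKO and 148, 127 and 113 CPM in ctrl libraries. Every library labelled KO lay below every other library of the set. The mean was 64.6 ± 7.94 CPM in the libraries labelled KO and 129 ± 17.6 CPM in ctrl libraries (log2 ratio -0.998, SE 0.28, edgeR adjusted p = 0.0397). The call was lost under several alternatives. With DESeq2 size factors the edgeR adjusted p was 0.0566, and without any 1 of the 6 KO and ctrl libraries it was between 0.0799 and 0.144, at log2 values of -1.08 to -0.88. Leaving out mitochondrial genes gave log2 -0.998 (edgeR adjusted p = 0.0399). That refit only takes those genes out of the scaling and cannot test what goes with a higher mitochondrial share. The part of the mitochondrial share, depth and oocyte marker level in this difference was not tested.

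Aqp11 was also lower in the libraries labelled KO than in pKO libraries (log2 ratio -1.20, SE 0.31, edgeR adjusted p = 0.0196), 1 of 8 genes called where 12.5% of all genes were. That call was lost without KO replicate 2 (edgeR adjusted p = 0.0858), KO replicate 3 (edgeR adjusted p = 0.0727) or pKO replicate 1 (edgeR adjusted p = 0.175), where the lone pKO library was assumed to vary like those of the other groups. Against mKO the difference was of like size but was not called (log2 ratio -1.11, SE 0.28, edgeR adjusted p = 0.183); there, edgeR called 0% of all genes and 0 of 8, and DESeq2 called 405 genes, Aqp11 among them (DESeq2 adjusted p = 0.0183). With no low count filter edgeR called Aqp11 as well (adjusted p = 0.0290). Without mKO replicate 1, the lowest mKO library, edgeR called it too (log2 -1.30, adjusted p = 0.0120). The comparisons with KO libraries share those 3 libraries.

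Atp1b1 had 121, 169.7 and 122 CPM in the libraries labelled KO, 92.9, 122 and 70.9 CPM in mKO, 64.4 and 103 CPM in pKO and 76.5, 84.3 and 62.6 CPM in ctrl libraries. The KO and ctrl libraries did not overlap, and the difference missed the threshold (log2 ratio 0.88, SE 0.30, edgeR adjusted p = 0.0757). It passed with DESeq2 (adjusted p = 0.0181) and in a fit of only these groups (edgeR adjusted p = 0.0140). Nme7, which overlaps it, was at 38.7 ± 6.60 CPM in the libraries labelled KO and 26.2 ± 9.38 CPM in ctrl libraries (log2 0.56, edgeR adjusted p = 0.382).

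KO and ctrl libraries overlapped for Cdh1, Tjp1, Cldn6, Cldn7, Aqp3 and Cldn4. How often such libraries overlap over all genes was not counted. Cdh1 was at 90.5 ± 22.4 CPM in the libraries labelled KO and 80.8 ± 16.9 CPM in ctrl libraries, a log2 difference of 0.16 with a 95% interval of -0.43 to 0.76. Tjp1 was at 27.0 ± 6.80 CPM in the libraries labelled KO and 22.4 ± 5.02 CPM in ctrl libraries (log2 0.27, interval -0.51 to 1.05). Cldn6 was at 35.5 ± 24.0 CPM in the libraries labelled KO and 36.1 ± 2.38 CPM in ctrl libraries (log2 -0.03, interval -0.83 to 0.78), with KO replicate 2 at 63.2 CPM well above the other libraries labelled KO. Cldn7 was at 8.59 ± 5.30 CPM in the libraries labelled KO and 6.81 ± 3.46 CPM in ctrl libraries, and Aqp3 at 1.51 ± 0.496 CPM in the libraries labelled KO and 3.07 ± 2.30 CPM in ctrl libraries. Cldn4 had no read in the libraries labelled KO, and all 14 of its ctrl reads came from replicate 3. The intervals of Cldn7 (-0.91 to 1.57) and Aqp3 (-3.23 to 1.18) are wide, and a rise of Cldn7 or a fall of Aqp3 by more than 1 on the log2 scale lies within them.

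In mKO against ctrl 0 of the 8 genes and 0% of all genes were called by edgeR, with 1243 genes at an unadjusted p below 0.05 and 58 called by DESeq2. In pKO against ctrl the counts were likewise 0 of 8 and 0% of all genes, with 476 genes at an unadjusted p below 0.05 and 3 called by DESeq2. Aqp11 had a log2 fold change of 0.11 (SE 0.28) in mKO and 0.20 (SE 0.31) in pKO, each against ctrl, and the pKO value was -0.16 without pKO replicate 1. Among the pathway lists, KO against ctrl called 0 of 13 adherens junction, 0 of 18 tight junction, 0 of 16 polarity, 0 of 8 sodium pump, 0 of 5 aquaporin and 0 of 10 ion transport genes. Of all tested genes 8.13% were called there. Of 16 other claudins 1 was called: Cldn18, named after its values were seen, rose to 13.5 ± 2.08 CPM in the libraries labelled KO, against 3.78 ± 1.20 CPM in ctrl libraries (log2 1.84, edgeR adjusted p = 0.0299).

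**Figure D4:**
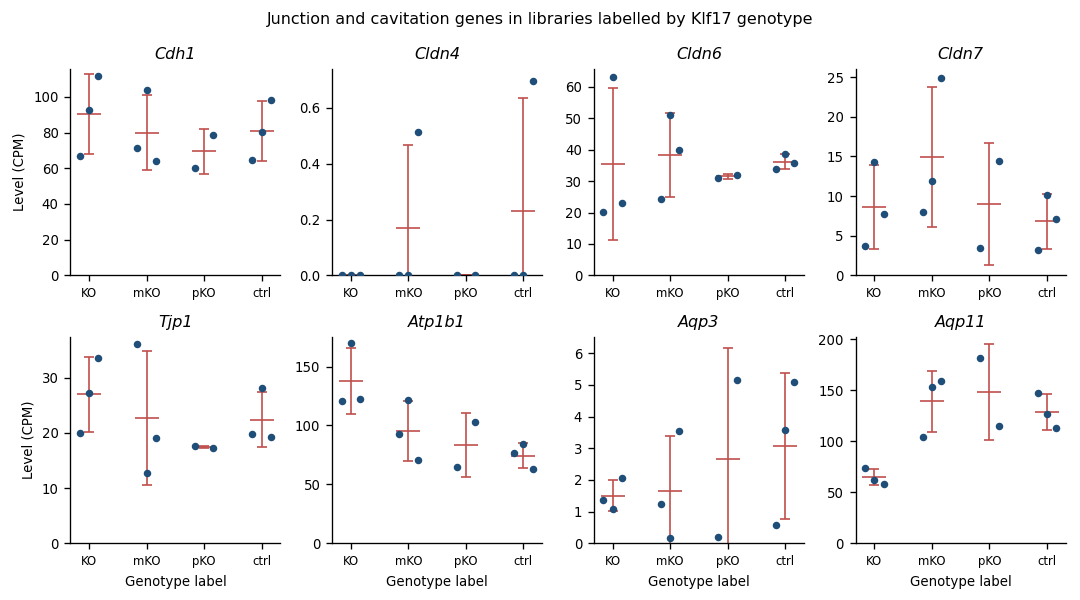
Level (CPM, linear axis from 0, its own scale in each panel) of the 8 genes in libraries labelled KO, mKO, pKO and ctrl; points are libraries (n = 3, pKO n = 2), the red dash is the mean and bars show the SD. Aqp11 lies at 58.4 to 73.5 CPM in the libraries labelled KO and at 105 CPM or more in all others, and Cldn4 has reads in only 1 mKO and 1 ctrl library.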

How the data were processed

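SLAM-seq libraries of MII oocytes, embryos in 9 windows and embryos of 4 Klf17 genotypes were used (41 of 61 samples); chromatin accessibility and embryo-number samples were not used here. Per the file headers, the authors deposited a count of reads for each gene beside its length. The deposited 90-96hpi replicate 3 column holds 1 fractional value in a damaged record, which was left out, so that column's unit is estimated counts and its values were rounded. Per the submitters' processing notes, Trim Galore 0.6.10, STAR 2.7.10a and SAMtools 1.12 were used with mm10; the counting tool, strand and any separation of converted reads are not given in the sources used here. Groups and replicates come from sample titles. Nothing says that replicates were separate cultures, and p-values cover only the spread between these libraries, and intervals on reads cover counting error only.

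Each experiment was fitted over all groups with edgeR 4.0.16 (R 4.3.3). Genes passed filterByExpr (min.count 10, min.total.count 15); TMM scaled the libraries and the robust quasi-likelihood F-test was two-sided, with Benjamini-Hochberg adjustment over all genes tested and calls below 0.05. The SE is the log2 fold change divided by the square root of F. Intervals of 95% on log2 fold changes assume a normal spread with this SE and are narrower than the F-test implies. CPM are from TMM-scaled totals. Ratios of reads with exact 95% intervals replace fitted folds where a group has at most 3 reads. The 8 genes, the lists and the comparisons were chosen with earlier results of these data known. Of each list, up to 2 called genes with the smallest adjusted p and at least 20 CPM in the higher group were named, and per gene the 3 most correlated profiles; some genes the rule names are not reported here. Alternatives were a DESeq2 1.42.0 test, its size factors in edgeR, scaling to total counts, a fit of only the 2 groups compared, the replicate number as a block, unfiltered genes and each library left out; leaving out mitochondrial genes was added after the data were seen. Scripts were tested on simulated data. Python 3.11.15, pandas 2.3.3 and matplotlib 3.10.9 made summaries and figures.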

Additional observations from a re-analysis of the deposited data

How the results depend on the processing

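The counts of the 8 genes called moved by over 1.5 times in 7 comparisons. At 0-6hpi against MII (1 gene) 3 were called with no low count filter and 4 with DESeq2, and 1 to 2 with a library left out. At 12-18hpi against 6-12hpi (1 gene) 2 were called in a fit of only the 2 groups, the added gene being Tjp1, and at 12-18hpi against MII (2 genes) 4 with no low count filter. In KO against ctrl (1 gene) 0 were called with DESeq2 size factors, 2 with the replicate block (Atp1b1 added, edgeR adjusted p = 0.0346), 2 with DESeq2 and 2 in a fit of only the 2 groups, and 0 with any library left out. In KO against mKO (0 genes) 1 was called with no low count filter and 1 with DESeq2, and 0 to 1 with a library left out. In KO against pKO (1 gene) 0 to 1, and at 30-36hpi against 24-30hpi (4 genes) 2 to 4, were called with a library left out. Cldn4, Aqp3 and Aqp11 at 0-6hpi against MII and Aqp3 and Aqp11 at 12-18hpi against MII account for the calls added against MII with no low count filter and with DESeq2. Of values called in either setting, only Tjp1 at 90-96hpi against MII turned sign, to 0.00754 with total count scaling; 100 values called in neither setting also changed sign.

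Genes called among all tested moved from 1358 in KO against ctrl to 2237 with no filter, 2064 with the replicate block, 2698 with DESeq2 and 3166 in a fit of only the 2 groups, and to between 0 and 892 with a library left out. They moved from 2087 in KO against pKO to 3654 with DESeq2 and 500 to 1180 with a library left out, from 1243 at 6-12hpi against 0-6hpi to 3577 with only the 2 groups and 737 without 0-6hpi replicate 3, and from 2143 at 12-18hpi against 6-12hpi to 3629 with only the 2 groups and 1201 without 12-18hpi replicate 2. Where edgeR called 0, no filter gave 47 genes in mKO against ctrl, 4 in pKO against ctrl and 543 in KO against mKO, and leaving out a library gave up to 110 in mKO against ctrl (without mKO replicate 2) and 1044 in KO against mKO (without mKO replicate 1). Total count scaling moved the median log2 fold change of all genes by -0.475 at 48-54hpi against 30-36hpi and 0.519 at 90-96hpi against MII. With it the share of higher genes among all called was 78.3% in place of 60.9% at 0-6hpi against MII (49.4% with DESeq2 size factors), 43.4% in place of 53.8% at 12-18hpi against 6-12hpi, 69.0% in place of 46.3% at 24-30hpi against 18-24hpi and 32.5% in place of 46.2% at 48-54hpi against 30-36hpi. It was 61.7% in place of 49.8% at 70-76hpi against 48-54hpi, 62.6% in place of 52.2% at 90-96hpi against 48-54hpi and 33.3% in place of 22.6% in KO against pKO. Replicate numbers were not treated as pairs in the main fits. In no comparison of 3 pairs was every correlation of same-numbered deviations over 0.1. In pKO against ctrl, which has 2 pairs, these correlations were 0.21 and 0.223, against a mean of -0.108 for differently numbered libraries. In mKO against ctrl they ran from -0.00115 to 0.231. Shared handling of same-numbered genotype libraries was not tested. Beside KO against ctrl the replicate block changed no other call of the 8 genes. Depth limits Cldn4, Cldn6, Cldn7 and Aqp3 in the windows where their groups hold a few reads.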
